A study of Mus musculus with 12 samples.

Results

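The genes described here encode the proteins of small nucleolar ribonucleoproteins (snoRNPs), the particles that modify ribosomal RNA. They were chosen by name: 4 genes of box C/D particles (Fbl, Nop56, Nop58 and Nhp2l1), 5 genes of box H/ACA particles (Dkc1, Nop10, Nhp2, Gar1 and Naf1), and Nolc1, whose product binds both classes. All 10 stood among the 21671 lines of the gene table, each on 1 line, and all 10 passed a minimum of 10 in every mean, as did 12030 of the lines.

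The study sequenced RNA from 3T9 cells, immortalized mouse embryonic fibroblasts, in 4 groups with 3 libraries each. OHT+dox cells received 400 nM 4-hydroxytamoxifen (OHT) and 2 µg/mL doxycycline (dox), OHT cells OHT alone at that dose, dox cells dox alone, and mock cells neither drug. Cells of all groups carried MycER, a Myc fusion protein that OHT activates. They also carried a viral vector from which dox induces YAP S127A, an activated mutant of YAP. They were confluent and starved of serum. The labels give the genotype as 3T9MycER, and the vector comes from the methods. MycER is expressed at all times. Cells without the vector that received dox are not analysed here, so dox itself and YAP S127A cannot be told apart. Nor are cells without MycER that received OHT, so OHT itself and active MycER cannot be told apart either. Whether the libraries of a group came from separate cultures is not given.

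In most of these particles a guide RNA pairs with the target RNA and a small set of proteins does the chemistry. Box C/D particles methylate riboses and box H/ACA particles turn uridines into pseudouridines, mostly in ribosomal RNA. The proteins reach the guide RNA through a series of assembly factors, and many ribosome biogenesis genes are known targets of Myc.

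The deposited table holds no value per library. It gives, for each gene, a mean normalized count over 6 libraries: those of 1 treated group together with those of mock. A normalized count is the read count of a library divided by its size factor, a measure of relative depth. Since the same mock libraries stand in all 3 means, their part drops out of a difference: 2 times the difference of 2 means is the difference between the treated groups. A ratio of 2 such means is pulled toward 1 by the shared mock part, whatever its size, so that the treated groups themselves differ by at least that ratio. The strength of this pull depends on the mock level of each gene, which is unknown. Ratios of different genes, or of sums of genes, can therefore differ for that reason alone. Fold changes against mock alone, and the spread between libraries, cannot be had from the means. The errors below (±) are counting errors only, taken at their upper limit, and no test was run.

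The means, already adjusted for depth, summed to 8184510 for OHT+dox with mock, 8299686 for OHT with mock and 8196013 for dox with mock. Depth itself shows in the size factors, which lay between 0.814 and 1.13, and both of these were OHT libraries. Size factors of different treated groups come from separate comparisons with mock. The cell type label was set against markers. Of 6 fibroblast markers, Col1a1, Col1a2, Col3a1, Vim and Pdgfrb had means of 2570 or more throughout, while Thy1, which only some fibroblasts express, stayed under 1. The 8 markers of blood, epithelium, endothelium, fat and muscle summed to 47.4 for OHT+dox with mock, 45.7 for OHT with mock and 42.03 for dox with mock, nearly all of it from the lysosomal gene Cd68. Fewer cells of a kind and less RNA per cell cannot be told apart in such bulk samples.

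All 10 snoRNP genes had the same order of means: highest for OHT+dox, then OHT, then dox. This order was found in 24.1% of all genes above the minimum. In OHT+dox over OHT the ratio reached 1.1 for 5 of the 10 (8.60% of all genes), in OHT+dox over dox for 9 (18.3%), and in OHT over dox for 3 (16.9%). None of the 10 was at or below the inverse of 1.1, where 10.0%, 14.1% and 10.6% of all genes lay. The medians of the 10 were 1.11, 1.16 and 1.06, against 0.999, 0.999 and 1.01 over all genes. The order by itself says nothing about any of the 3 groups against mock.

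**Figure D1:**
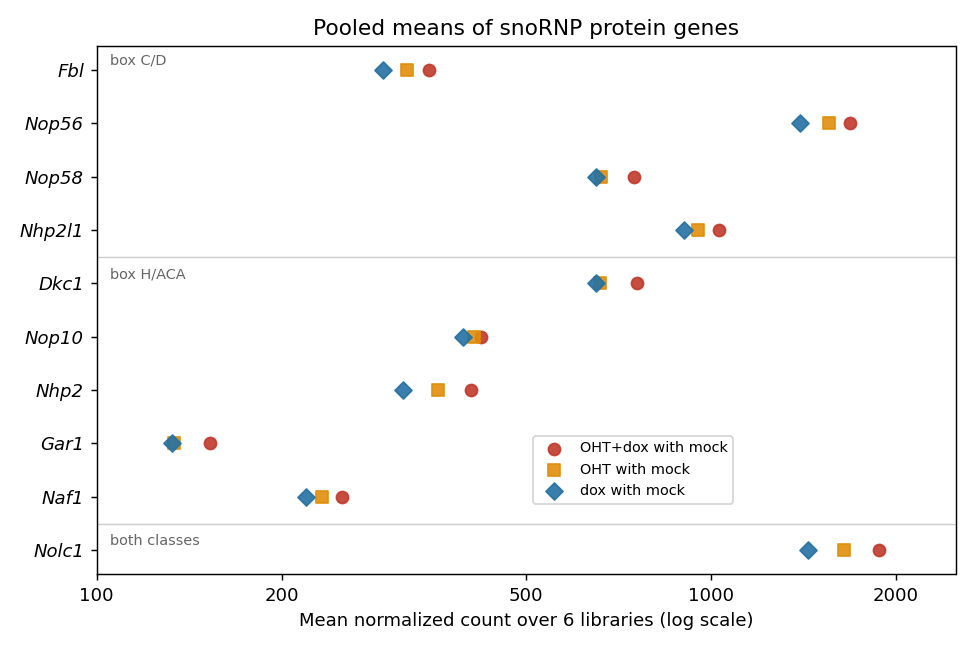
Mean normalized count over 6 libraries (x axis, log scale) of each gene (rows), for OHT+dox with mock (red circles), OHT with mock (orange squares) and dox with mock (blue diamonds), on 1 common scale. Red lies to the right in all 10 rows and blue to the left, from Gar1 at 153, 134 and 132 to Nolc1 at 1877, 1645 and 1437.

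The promoters of 8 genes were at hand in RefSeq (GRCm38.p6), as windows from 250 bases before to 50 bases after a start site. Fbl and Naf1 had no window in this set, although RefSeq lists both genes. The E-box CACGTG, the classical binding sequence of Myc and Max, occurred in 0 of the 8 windows, against 7.15% of 32851 windows in the whole table and 9.93% of the 11538 windows of genes above the minimum. GGAATG, or CATTCC on the other strand, the core that TEAD factors bind, was in 0 as well (14.7% and 12.3%). The variant E-box CACGCG, or CGCGTG on the other strand, was in 3 of 8 (9.27% and 17.3%). The E-boxes differ in 1 base, so no match counts for both. Both strands were searched, and a window without a match says nothing about binding elsewhere in the gene.

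The 3 windows with the variant E-box belong to Nolc1 and Nhp2, which had the highest ratios of OHT+dox over dox, and to Nop10, which had the lowest. They are shown for that contrast, each 5′ to 3′ on the strand of its gene, with CACGCG or CGCGTG in capitals. Nolc1 is at chr19:46075597-46075896 (+), Nhp2 at chr11:51619523-51619822 (+) and Nop10 at chr2:112261676-112261975 (+).
Nolc1: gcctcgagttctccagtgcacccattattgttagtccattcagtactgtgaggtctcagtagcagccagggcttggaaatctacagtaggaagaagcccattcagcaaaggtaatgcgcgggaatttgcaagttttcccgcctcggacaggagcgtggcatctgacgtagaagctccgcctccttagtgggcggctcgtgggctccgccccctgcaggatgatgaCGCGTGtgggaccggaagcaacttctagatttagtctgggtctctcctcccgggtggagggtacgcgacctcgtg
Nhp2: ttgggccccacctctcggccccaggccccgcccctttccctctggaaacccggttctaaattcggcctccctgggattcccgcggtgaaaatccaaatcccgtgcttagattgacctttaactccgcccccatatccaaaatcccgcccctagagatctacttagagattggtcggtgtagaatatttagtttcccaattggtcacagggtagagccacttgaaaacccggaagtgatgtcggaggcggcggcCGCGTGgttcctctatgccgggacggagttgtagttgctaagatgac
Nop10: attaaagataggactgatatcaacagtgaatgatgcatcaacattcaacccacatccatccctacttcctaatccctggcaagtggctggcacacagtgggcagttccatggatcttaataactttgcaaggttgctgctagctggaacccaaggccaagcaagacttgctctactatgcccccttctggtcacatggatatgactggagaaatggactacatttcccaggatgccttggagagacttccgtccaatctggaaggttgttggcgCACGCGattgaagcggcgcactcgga
The centre of the match lay 22 bases before the start site in Nolc1, and 6 and 27 bases after it in Nhp2 and Nop10. So the same letters stood near the start of the genes at both ends of the range.

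Nolc1 had the highest ratio of OHT+dox over dox of the 10 genes. It encodes Nopp140, a phosphoprotein that shuttles between nucleolus and Cajal bodies and chaperones snoRNPs of both classes. Its mean was 1877 for OHT+dox with mock, 1645 for OHT with mock and 1437 for dox with mock. OHT+dox cells thus held 464 ± 49 more normalized counts per library than OHT cells and 881 ± 47 more than dox cells, and OHT cells held 416 ± 46 more than dox cells. The ratios were 1.14, 1.31 and 1.14, above those of 95.4%, 96.2% and 89.5% of all genes. Each of these differences is at least 9 times its counting error.

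Like the box H/ACA genes and Nolc1, the box C/D genes all had a higher mean for OHT+dox than for OHT. Fbl encodes fibrillarin, the methyltransferase of the particle. Its mean was 348 for OHT+dox with mock, 320 for OHT with mock and 292 for dox with mock. OHT+dox exceeded OHT by 55.0 ± 21.2 and dox by 111 ± 21 normalized counts, and OHT exceeded dox by 56.2 ± 20.3. Each step of Fbl lay between 2.6 and 5.4 times its counting error.

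Nop56 and Nop58 encode the paired scaffold proteins that hold fibrillarin near the guide RNA. Nop56 had means of 1682, 1556 and 1395 for OHT+dox, OHT and dox with mock. Its differences were 251 ± 47 for OHT+dox minus OHT, 573 ± 46 for OHT+dox minus dox and 321 ± 45 for OHT minus dox. Nop58 had means of 749, 661 and 650 in the same order. It was higher in OHT+dox than in OHT by 175 ± 31 and than in dox by 198 ± 31. OHT and dox differed by 23.2 ± 29.7 in Nop58, within the counting error. The ratio of OHT over dox was 1.12 ± 0.02 in Nop56 and 1.02 ± 0.02 in Nop58, a gap of 0.0973 ± 0.0286. Since the mock part may pull each ratio by a different amount, the gap need not be one of response.

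Nhp2l1 encodes the protein that reads the kink-turn of the guide RNA and also sits in the U4 particle of the spliceosome. RefSeq calls the gene Snu13. Its means were 1032, 952 and 905, and the differences were 159 ± 37 (OHT+dox minus OHT), 253 ± 36 (OHT+dox minus dox) and 94.3 ± 35.4 (OHT minus dox). Its ratio of OHT+dox over dox, 1.14, was the lowest among the box C/D genes, and Nop56 had the highest, 1.21.

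Among the box H/ACA genes the range was wider. Dkc1 encodes dyskerin, the pseudouridine synthase, which is also part of telomerase. Its means were 757 for OHT+dox with mock, 659 for OHT with mock and 649 for dox with mock. OHT+dox exceeded OHT by 197 ± 31 and dox by 216 ± 31, while OHT minus dox was 19.1 ± 29.7. Dkc1 had the highest ratio of OHT+dox over OHT of the 10 genes, 1.15 ± 0.03, above 96.0% of all genes. Its means with OHT and with dox differed by less than the counting error.

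Nhp2 encodes a small RNA-binding subunit that is related in sequence to the product of Nhp2l1. Its means were 407, 360 and 315. The differences were 94.5 ± 22.7 for OHT+dox minus OHT, 183 ± 22 for OHT+dox minus dox and 88.7 ± 21.3 for OHT minus dox. With ratios of 1.13, 1.29 and 1.14 it resembled Nolc1 more than its partners in the particle.

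Gar1 encodes the subunit that replaces Naf1 when the particle matures. Its means were 153, 134 and 132, the lowest counts of the 10 in each pool. Per kilobase of exon Naf1 was lower (83.9 against 120 for OHT+dox with mock). OHT+dox exceeded OHT by 38.7 ± 13.9 and dox by 41.4 ± 13.9, and OHT minus dox was 2.71 ± 13.4. Like Dkc1 and Nop58, it had nearly equal means with OHT and with dox and a higher one with both.

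Naf1 encodes the assembly factor that holds the particle before Gar1 enters. Its means were 251, 233 and 219. The difference of OHT+dox and dox was 62.6 ± 17.8. OHT+dox minus OHT was 35.3 ± 18.1 and OHT minus dox 27.3 ± 17.5, both within 2 counting errors.

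Nop10 encodes the smallest core subunit, which binds dyskerin. Its means were 422, 411 and 395, and its ratios of OHT+dox over OHT and over dox were the lowest of the 10. OHT+dox minus OHT was 21.6 ± 23.7, within the counting error, OHT+dox minus dox 55.0 ± 23.5 and OHT minus dox 33.3 ± 23.3. Its ratio of OHT+dox over dox was 1.07 ± 0.03, above 75.6% of all genes, against 96.2% for Nolc1.

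**Figure D2:**
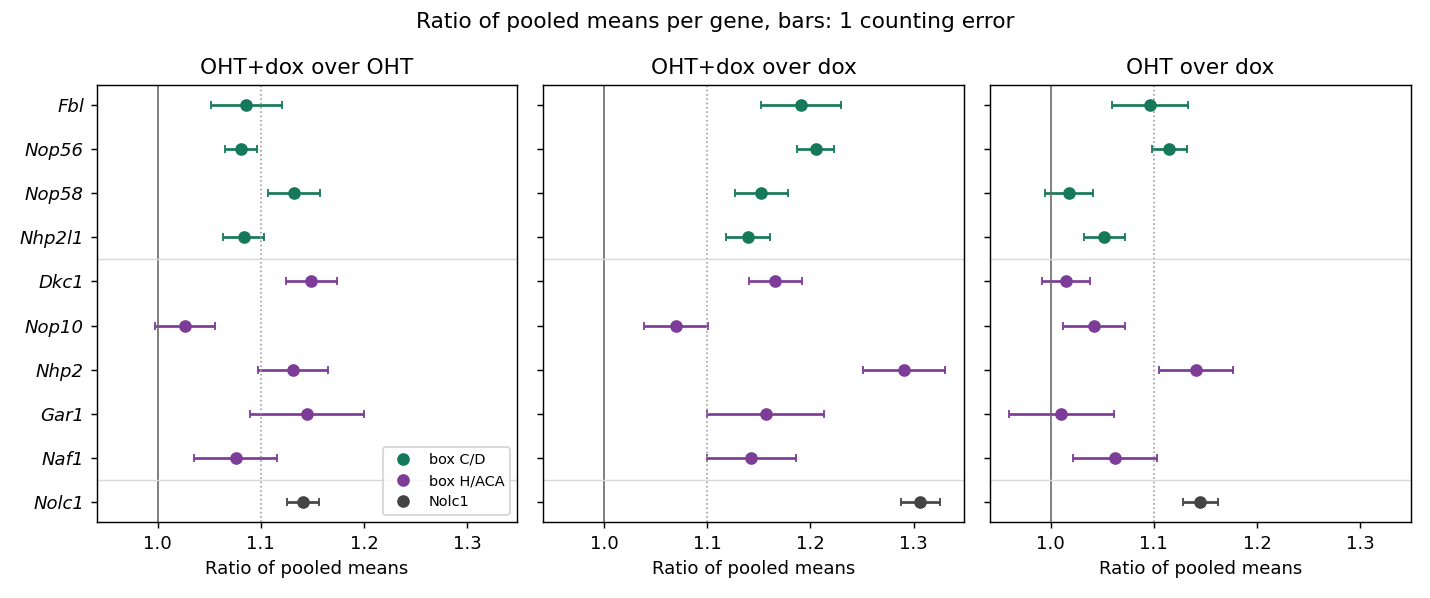
Ratio of pooled means (x axis) of each gene (rows) for OHT+dox over OHT, OHT+dox over dox and OHT over dox, with bars of 1 counting error on either side. The solid line is at 1 and the dotted line at 1.1. Nolc1 (1.31) and Nhp2 (1.29) stand to the right in OHT+dox over dox and Nop10 (1.07) to the left.

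Counted over the 10 genes, OHT+dox lay above OHT by more than 2 counting errors in 8 (18.6% of all genes above the minimum), the exceptions being Nop10 and Naf1. It lay above dox by that margin in all 10 (24.7%). OHT lay above dox by that margin in 5 (22.3%): Nolc1, Nop56, Nhp2, Fbl and Nhp2l1. None of the 10 lay lower by that margin, where 14.8%, 23.0% and 19.8% of all genes did. Many genes thus passed this margin in 1 direction or the other. Abundant genes pass it more easily. Among the 9542 genes with every mean at 100 or more, as in all 10, the upward shares were 22.1%, 27.7% and 24.2%. The downward shares were 17.1%, 26.8% and 23.4%. When the genes were put in order of their ratios, none of the 27 pairs of neighbours lay more than 2 counting errors apart. The gaps nearest to that margin were those of Nhp2 and Nop56 (0.0852 ± 0.0437) and of Nhp2l1 and Nop10 (0.0701 ± 0.0375), both in OHT+dox over dox. Sorting puts the closest values side by side, so this bears on adjacent ranks and not on whether the genes differ. The ends of the order in OHT+dox over dox were Nolc1 at 1.31 ± 0.02 and Nop10 at 1.07 ± 0.03.

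Box C/D and box H/ACA genes were not separated by these values. In OHT+dox over OHT the median ratio was 1.08 (range 1.08 to 1.13) for the 4 box C/D genes and 1.13 (1.03 to 1.15) for the 5 box H/ACA genes. In OHT+dox over dox the medians were 1.17 (1.14 to 1.21) and 1.16 (1.07 to 1.29). In OHT over dox they were 1.07 (1.02 to 1.12) and 1.04 (1.01 to 1.14). The ranges overlapped in each pair of groups. The class with the higher median was box H/ACA in the first pair and box C/D in the others.

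The summed means showed the same. The box C/D genes summed to 3810 for OHT+dox with mock, 3490 for OHT with mock and 3242 for dox with mock, and the box H/ACA genes to 1990, 1796 and 1711. The ratios of these sums were 1.09 ± 0.01 and 1.11 ± 0.01 in OHT+dox over OHT and 1.18 ± 0.01 and 1.16 ± 0.02 in OHT+dox over dox. OHT minus dox was 495 ± 67 normalized counts in the box C/D sum and 171 ± 49 in the box H/ACA sum. As a difference of these ratios for the 3 pairs of groups, box C/D minus box H/ACA was −0.02 (95% counting interval −0.05 to 0.02), 0.01 (−0.03 to 0.05) and 0.03 (−0.01 to 0.06), each of which includes 0. These intervals leave out the spread between libraries and any difference in the mock part of the classes. A sum is ruled by its most abundant genes, Nop56 and Nhp2l1 in box C/D and Dkc1 in box H/ACA.

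**Figure D3:**
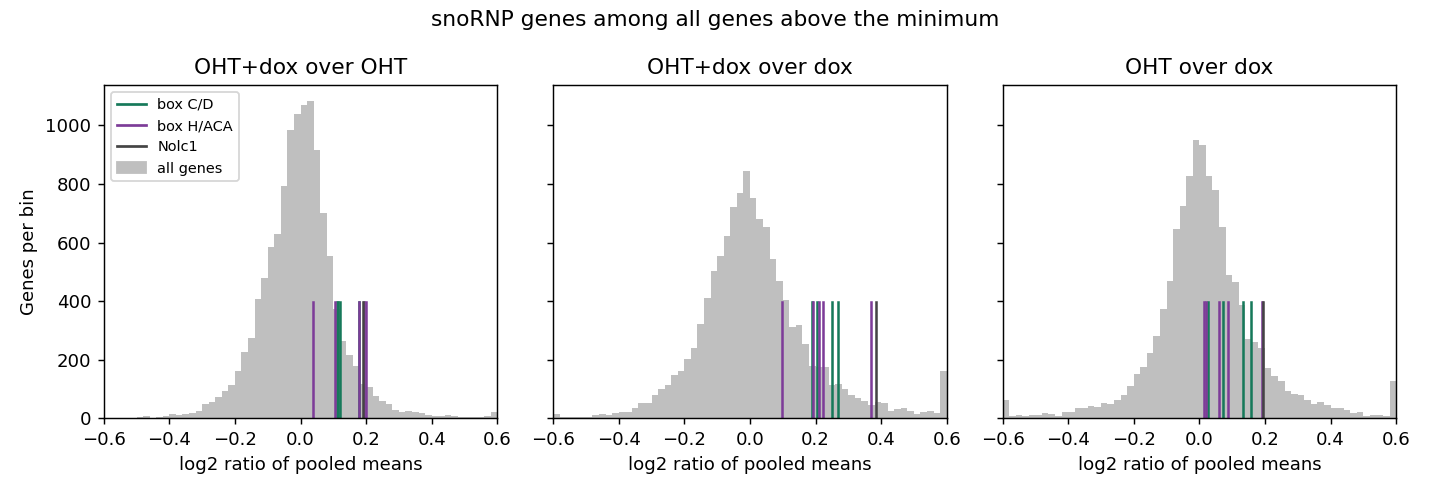
Number of genes (y axis) by log2 ratio of pooled means (x axis) for the 12030 genes above the minimum (grey), with the 10 snoRNP genes as coloured lines. The outermost bins also hold the genes beyond ±0.6. In each panel every coloured line lies to the right of 0.

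Levels can be compared between genes only per length. Means were divided by the exon length of the principal transcript in GENCODE vM21, which may not be the one counted. For OHT+dox with mock, Nop56 had the highest level, 896 per kilobase, followed by Nolc1 (516), Nhp2l1 (497), Nop58 (437), Nhp2 (390), Nop10 (381), Fbl (290), Dkc1 (270), Gar1 (120) and Naf1 (83.9). The box C/D genes had a median of 467 per kilobase (290 to 896) and the box H/ACA genes of 270 (83.9 to 390). Subunits of the same particle thus differed several-fold in these means, Gar1 and Naf1 being the lowest. All of these are levels that include the mock libraries.

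The assembly and trafficking factors moved in part like the snoRNP genes. Of 13, all in the table and above the minimum, 3 reached 1.1 in OHT+dox over OHT, 8 in OHT+dox over dox and 6 in OHT over dox, and none was at or below the inverse. The shares over all genes were 8.60%, 18.3% and 16.9%. The medians of the 13 were 1.053, 1.19 and 1.097, against 0.999, 0.999 and 1.01 over all genes. In OHT+dox over OHT the highest was Nufip1, a platform for box C/D assembly, with means of 275 for OHT+dox with mock and 243 for OHT with mock (ratio 1.13). The lowest was Pih1d1, a subunit of the R2TP chaperone complex, at 224 and 238 (0.942 ± 0.036). Ruvbl1 and Ruvbl2, the ATPases of R2TP, had ratios of OHT+dox over dox of 1.28 and 1.28.

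The factor that stood out was Shq1, a chaperone that holds dyskerin before it meets RNA, and it was singled out after its values were seen. Its mean was 155 for OHT+dox with mock, 139 for OHT with mock and 91.0 for dox with mock. OHT+dox over dox was 1.70 and OHT over dox 1.52, against 1.17 and 1.01 in Dkc1 itself. The chaperone and its client thus had similar ratios of OHT+dox over OHT (1.11 and 1.15) and different ones of OHT over dox. How far the mock part pulled each of them toward 1 is unknown. Pih1d1, Wrap53 and Coil, the last 2 being proteins of Cajal bodies, were the factors with a lower mean for OHT+dox than for OHT, at ratios of 0.942 ± 0.036, 0.959 ± 0.045 and 0.986 ± 0.035, all within 2 counting errors of no difference.

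**Figure D4:**
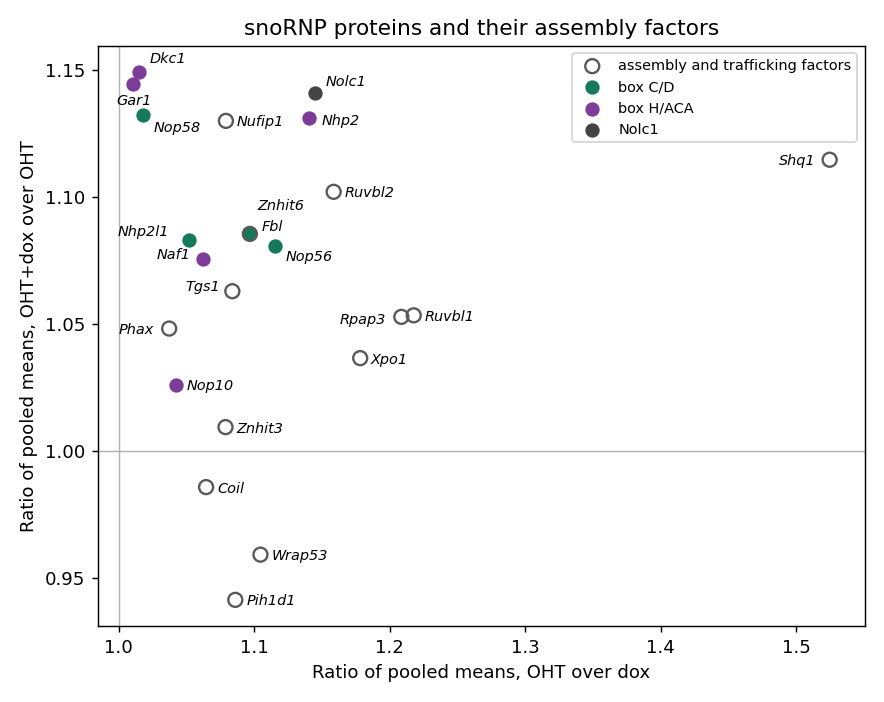
Ratio of pooled means of OHT over dox (x axis) and of OHT+dox over OHT (y axis) for the 10 snoRNP genes (filled) and 13 assembly and trafficking factors (open). Grey lines are at 1, and the open circle of Znhit6 lies on the point of Fbl. Shq1 lies far to the right (1.52), Dkc1 and Gar1 at the upper left (1.01 and 1.15, 1.01 and 1.14), and Pih1d1, Wrap53 and Coil below 1 on the y axis, each by less than 2 counting errors.

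Other particles share some of these proteins. Rrp9, which binds U3 RNA together with the product of Nhp2l1, had means of 699 for OHT+dox with mock, 613 for OHT with mock and 415 for dox with mock (OHT+dox over dox 1.68). Prpf31, whose product sits with that of Nhp2l1 in the U4 particle, had 596, 550 and 500 (1.19). Tert, the catalytic subunit of telomerase, had means under 1, and Fbll1, a relative of fibrillarin, was listed at 0 in all 3. Neither Tert nor Fbll1 was therefore detectable at a level that allows a comparison.

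RefSeq places 10 snoRNA genes inside the members, 5 in Nop56, 4 in Nop58 and 1 in Dkc1. Of these, 4 were in the table. Snord57, in Nop56, had means of 11.6 for OHT+dox with mock, 12.6 for OHT with mock and 8.32 for dox with mock, and Snord110 had 4.72, 3.58 and 3.05. In Nop58, Snord11 had 4.73, 3.89 and 3.52 and Snord70 had 5.17, 5.43 and 4.84. None passed the minimum of 10 in every mean, so the guides could not be followed beside the genes that host them.

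By the rule of nearest log2 ratios, the genes most like the median of the 10 among 9532 others with means of at least 100 were Hsd17b12, Ctnnbip1, Denr, Naa16 and Ipmk. They lay within 0.0126 of it on the log2 scale over the 3 ratios. Hsd17b12 had means of 710, 643 and 609 for OHT+dox, OHT and dox with mock. The nearest member, Nhp2l1, lay 0.0432 away and 74 other genes were nearer, so the pattern was shared by many genes.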

How the data were processed

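RNA was sequenced from 12 libraries of 3T9 cells, made from total RNA without poly(A) selection. The kit named in the labels does not mark strand, so overlapping and antisense genes cannot be told apart. Per the labels, the authors used TopHat2 2.0.8, SAMtools, featureCounts 1.4.5-p1, DESeq2 and the mm9 build; neither the annotation nor the treatment of reads with several matches is stated there, so genes with near-identical copies are uncertain.

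The authors' deposited table has 3 comparisons with mock. For each it holds a mean normalized count over 6 libraries, which was used here, and the fold change, adjusted p and call of the authors' own comparison, which were not. The choice of tests therefore fell away, and values are given with counting errors only.

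What 1 read adds to a mean was read from values that recur at least 20 times among genes with a single read. For a mock library it shows in all 3 means, which puts them on the scale of the OHT+dox comparison: OHT with mock was multiplied by 0.979 and dox with mock by 0.999. The 3 mock libraries gave scales within 0.759% and 0.943% of each other. Genes with a mean under 10 in any pool were left out. Counting errors were computed with the mock mean set to 0, their upper limit. The steps were also run on simulated libraries with 200 genes changed in OHT+dox alone, a simpler setting than the data, and the outcome is not given here. Alternatives were no rescaling, the median gene as scale, other minimums (50, or none) and other ratios (1.05, 1.2).

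All 10 genes are named, with the highest and lowest assembly factor and the 5 most similar genes. Members and lists were chosen with earlier results of these data known. Python 3.11.15, numpy 2.4.6 and pandas 2.3.3 were used.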

Additional observations from a re-analysis of the deposited data

How the results depend on the processing

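All 10 snoRNP genes kept the order OHT+dox, OHT, dox under each of the scales tried. Their 60 ratios under the other scales moved by less than 2 counting errors. Both other scales raise OHT over dox in every gene by a common factor, so the place of OHT above dox could not change. In that pair Gar1 (1.010) and Dkc1 (1.015) lay near the median of all genes, 1.007. No counting error was computed for a class median. Without rescaling, the box C/D median went from 1.085 to 1.062 in OHT+dox over OHT and from 1.074 to 1.096 in OHT over dox. The box H/ACA median went from 1.131 to 1.107 and from 1.042 to 1.063. Without Naf1, the box H/ACA medians were 1.138 in OHT+dox over OHT, 1.161 in OHT+dox over dox and 1.028 in OHT over dox. With no rescaling, 4 in place of 3 of the 10 reached 1.1 in OHT over dox. The counts over all genes, which serve as background, depend on the settings. Without rescaling, 706 genes were higher and 1853 lower in OHT+dox than in OHT (1035 and 1206 as reported), and 2642 higher and 964 lower in OHT than in dox (2036 and 1278). With a minimum of 50, 719 were lower in OHT+dox than in OHT. With no minimum, 2543 were higher and 2842 lower in OHT+dox than in OHT, 3851 and 3085 in OHT+dox than in dox, and 3772 and 2608 in OHT than in dox. At the lower of the alternative ratios these were 2524 and 2912, 3578 and 3392, and 3624 and 2646. At 1.2 they were 244 and 203, 918 and 432, and 748 and 439. Leaving out the rescaling multiplies all ratios of a pair by the same factor (the median of all genes in OHT+dox over OHT was 0.978, against 0.999 as reported), another minimum changes which genes are counted, and another ratio moves the threshold.

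No paired analysis was possible because the deposited means carry no value per library, and no library was left out for the same reason. The differences between OHT and dox in Nop10, Gar1, Dkc1, Nop58 and Naf1 were within 2 counting errors. These errors are upper limits for counting alone. The spread between libraries is unknown and would add to them.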
